A study of Homo sapiens with 8 samples.

Results

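The transcripts of 9 genes of retinoid and vitamin D signalling were followed in HepG2, an established human cell line from a hepatocellular carcinoma, after exposure to plastic-related antioxidants. The genes are the nuclear receptors RARA, RARB, RXRA, and VDR, the catabolic enzymes CYP26A1 and CYP24A1, the retinaldehyde reductase DHRS3, the retinoic acid carrier CRABP2, and the vitamin D-inducible surface protein CD14. They were taken by gene symbol, for their roles in these pathways, and make up 9 of the 60230 genes in the table. All samples came from a HepG2 derivative that overexpresses the drug-metabolizing enzyme CYP3A4 and was kept under blasticidin selection. The 4 groups were 0.2% DMSO, compound 4, compound 5, and compound 6, with 2 samples each and 24 h of exposure by the study's methods. Each compound was given at its own IC50 concentration, so the molar doses were not matched.

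Compounds 4 and 6 are methylene-bridged bisphenols that differ in the group beside the hydroxyl, which is tert-butyl in compound 4 and cyclohexyl in compound 6. In compound 5 both rings sit on the same carbon of an ethane unit, and each carries tert-butyl at both substituted ring positions. The labels list these treatments as metylcresol, tetrabut, and cyclohexil. The labels also number the samples of a group as day 1 and day 2, which served here as replicates 1 and 2. The labels name replicate 1 of compounds 4 and 5 as merged and give each a pair of S numbers, with no word on what these stand for.

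Retinoic acid binds RARA, RARB, or the related RARG, and the active form of vitamin D binds VDR. Each of these receptors pairs with RXRA or another RXR on DNA and recruits coactivators in place of corepressors when ligand is present. The ligands induce their own breakdown, CYP26A1 being the classical induced enzyme for retinoic acid and CYP24A1 the one for vitamin D, and the liver is the main site of retinoid storage and of the first hydroxylation of vitamin D.

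With all 3 compounds, CYP24A1 rose between 2.88- and 5.76-fold over DMSO. DHRS3 rose 1.35-fold under compound 4 and 1.45-fold under compound 5, but both calls were lost without DMSO replicate 2 (edgeR adjusted p = 0.359 and 0.0833), and that under compound 4 also in 4 of 10 other settings. CD14 held 1 and 2 counts in DMSO, 11 and 16 under compound 4, and 9 and 12 under compound 6, and was called under both. It passed the filter on low counts only through the groups where it is high, and the call under compound 6 was lost with replicate as a block (edgeR adjusted p = 0.0568) and in DESeq2 (adjusted p = 0.213). The receptors RARA, RXRA, and VDR did not pass the test with any compound. RARB, CYP26A1, and CRABP2 held at most 10 counts in any sample and stayed below the filter on low counts.

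The genes covered a wide span of levels. Per kilobase of exon, the mean level over the 8 samples was 129 CPM (counts scaled to TMM-adjusted library totals of the tested genes) for CYP24A1, 26.4 for DHRS3, 6.92 for RXRA, and 4.35 for RARA. The same quantity was 0.362 for CD14, 0.149 for VDR, 0.140 for CYP26A1, 0.0367 for RARB, and 0.0296 for CRABP2. In DMSO alone CYP24A1 already stood above DHRS3, at 38.3 ± 2.00 against 21.7 ± 3.47 CPM per kilobase (SD, n = 2). Among the lowest 5, the ranges of group means overlapped between neighbours in this order, with 0.0697 to 0.580 CPM per kilobase for CD14, 0.110 to 0.187 for VDR, 0.0440 to 0.236 for CYP26A1, 0.0124 to 0.0990 for RARB, and 0 to 0.0474 for CRABP2. The group means of VDR were all above those of RARB and CRABP2.

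**Figure D1:**
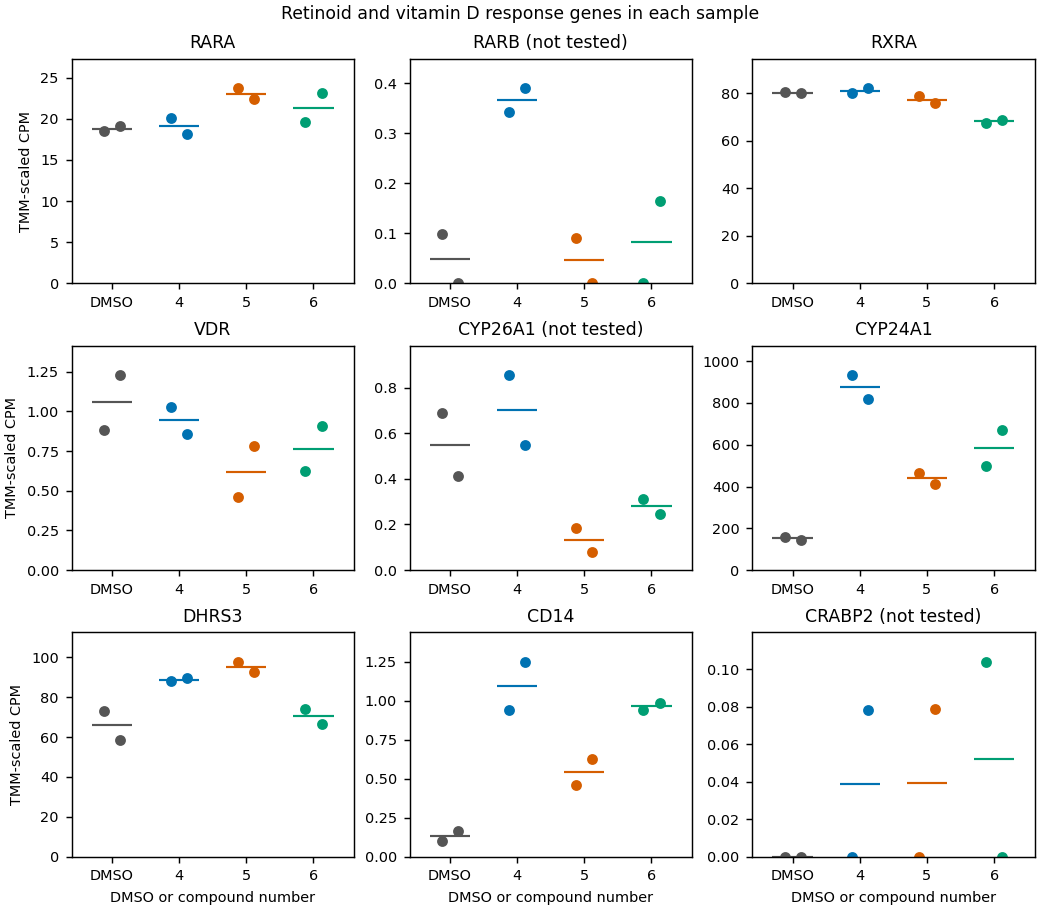
Level of each of the 9 genes in every sample, as TMM-scaled CPM on linear axes that start at 0, with 1 point per sample and a bar at the mean of the 2 samples of a group. All 6 treated samples of CYP24A1 lie above both DMSO samples, which are at 158 and 146 CPM, and the panels of RARB and CRABP2 stay below 0.5 CPM.

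The libraries held between 9472261 and 13308975 counts, so 3 counts, taken as the floor of detection, correspond to between 0.234 and 0.313 CPM (counting error only). Mitochondrially encoded genes took between 4.91% and 6.21% of the counts, with both DMSO samples (4.91% and 5.12%) below all treated ones. The hepatocyte markers were present, with 10 of 10 passing the filter on low counts, and their summed level was 39596 to 41411 CPM in DMSO, 30961 to 31067 under compound 4, 32927 to 33105 under compound 5, and 31540 to 37911 under compound 6. CYP3A4 was at 198 to 207 CPM in DMSO, 216 to 287 under compound 4, 371 to 421 under compound 5, and 170 to 171 under compound 6. These values differed between the groups, and their part in the changes below was not tested. In such bulk samples, fewer cells that express a gene and less RNA per cell cannot be told apart.

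Of the 9 genes, 6 passed the filter and were tested among 13404 genes by edgeR's quasi-likelihood test with Benjamini-Hochberg adjustment over all of them. Under compound 4, 3 of the 6 were called at an adjusted p under 0.05 (CYP24A1, DHRS3, and CD14, all higher), where 11.9% of all tested genes were called, 6.50% higher and 5.42% lower. Under compound 5, 2 of the 6 were called (CYP24A1 and DHRS3, both higher), where 28.1% of all tested genes were called, 13.9% higher and 14.2% lower. The share of the calls under compound 5 that were higher was 49.3% here, 36.6% when scaled by upper quartiles, and 33.3% by library size alone. Under compound 6, 2 of the 6 were called (CYP24A1 and CD14, both higher), where 4.40% of all tested genes were called, 2.80% higher and 1.60% lower. The 3 comparisons share the DMSO samples and are therefore not independent of each other. Unless another tool is named, adjusted p-values are from edgeR, SE is the standard error of a log2 fold change, and intervals of fold changes are at 95%.

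**Figure D2:**
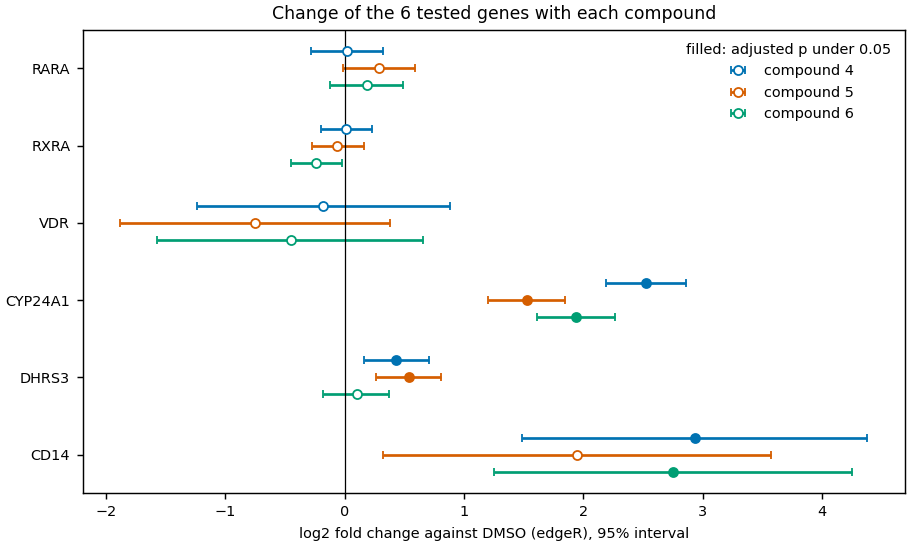
Change of the 6 tested genes with each compound, as the log2 fold change against DMSO with its 95% interval from edgeR, filled where the adjusted p was under 0.05. The 3 values of CYP24A1, between 1.53 and 2.53, lie clear of 0, whereas the intervals of VDR reach from -1.88 to 0.88.

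RARA (ENSG00000131759, GRCh38 chromosome 17, 40309192 to 40357643, plus strand) encodes the retinoic acid receptor alpha. Its level was 18.5 and 19.1 CPM in DMSO, 20.1 and 18.1 under compound 4, 23.7 and 22.4 under compound 5, and 19.6 and 23.1 under compound 6. Both samples of compound 5 and both of compound 6 were above DMSO, and those of compound 4 lay on either side of it. The log2 fold change of 0.29 under compound 5 (SE 0.14, interval -0.01 to 0.59) did not pass the test (edgeR adjusted p = 0.127), nor did 0.19 under compound 6 (interval -0.12 to 0.49, edgeR adjusted p = 0.499) or 0.02 under compound 4 (interval -0.28 to 0.32, edgeR adjusted p = 0.94).

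RXRA (ENSG00000186350, chromosome 9, 134317098 to 134440585, plus strand), the common partner of the other receptors, was the most abundant per length of the 4 receptors among the 9 genes. Its level was 80.6 and 80.1 CPM in DMSO, 80.1 and 82.1 under compound 4, 78.8 and 75.8 under compound 5, and 67.7 and 68.8 under compound 6. The samples of compound 6 were the lowest of the 8. The log2 fold change under compound 6 was -0.24 (SE 0.10, interval -0.45 to -0.02) with an unadjusted p of 0.034 in edgeR, which did not pass after adjustment (edgeR adjusted p = 0.206). Under compounds 4 and 5 it was 0.01 (interval -0.20 to 0.23, edgeR adjusted p = 0.947) and -0.06 (interval -0.27 to 0.16, edgeR adjusted p = 0.702).

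VDR (ENSG00000111424, chromosome 12, 47841537 to 47943048, minus strand), the vitamin D receptor, was close to the floor. It held 9 and 15 counts in DMSO, 12 and 11 under compound 4, 5 and 10 under compound 5, and 6 and 11 under compound 6. The samples of compounds 4 and 6 overlapped DMSO, and both samples of compound 5 (0.458 and 0.785 CPM) were below the DMSO samples (0.886 and 1.23 CPM). The log2 fold changes were -0.18 under compound 4 (interval -1.24 to 0.88, edgeR adjusted p = 0.848), -0.75 under compound 5 (interval -1.88 to 0.38, edgeR adjusted p = 0.295), and -0.45 under compound 6 (interval -1.57 to 0.66, edgeR adjusted p = 0.67). At this depth the interval for compound 4 reached from 0.422 to 1.84 times the DMSO level, so a change within it was not excluded.

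RARB (ENSG00000077092, chromosome 3, 25174332 to 25597932, plus strand) encodes the retinoic acid receptor beta, itself a classical retinoic acid target. It held 1 and 0 counts in DMSO, 4 and 5 under compound 4, 1 and 0 under compound 5, and 0 and 2 under compound 6. Only the samples of compound 4 exceeded 3 counts. Summed over 2 samples, 9 counts under compound 4 stood against 1 in DMSO, a depth-scaled ratio of 8.2 with an exact Clopper-Pearson interval of 1.14 to 359 that covers counting error only. Tested without the filter on low counts, it did not pass (edgeR adjusted p = 0.436). For compounds 5 and 6 both groups were at or under the floor, and no ratio is given.

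Direct repeats of a receptor-binding hexamer are the known DNA sites of these receptors, repeats spaced by 5 bases (DR5) or 2 bases (DR2) for retinoic acid receptors and by 3 bases (DR3) for VDR. The 250 bases before each annotated RefSeq transcript start (GRCh38.p14) were searched on both strands for pairs of the hexamers AGGTCA (the consensus), AGTTCA (a common variant), GGGTCA (another variant), and GGTTCA (the combination of both) in these spacings. Windows were found for 7 of the 9 genes (all but CYP24A1 and VDR), 16 in all, and 2 of them held a repeat, both DR5, in RARB and CYP26A1. Of all 35116 promoter windows searched alike, 0.074% held a DR5, 0.0655% a DR3, and 0.0313% a DR2, and 33.8% held at least 1 single hexamer. The sites of RARB and CYP26A1 are shown because they are the matches among the genes studied, with the repeat and its spacer in capitals and each sequence 5′ to 3′ on the strand that carries the repeat:
RARB, chr3:25428204-25428233, plus strand, 53 to 37 bases before the start: gggtagGGTTCACCGAAAGTTCActcgcat
CYP26A1, chr10:93073797-93073826, minus strand, 90 to 74 bases before the start: gacaattAGTTCACCCAAAGTTCAtcttta
Each site lies before a single annotated start inside the gene as placed here, and the other windows of RARB and CYP26A1 held no repeat. Such a match describes letters only. Both of these genes were near or under the floor of detection in these cells, and the windows of RARA, RXRA, DHRS3, CD14, and CRABP2 held single hexamers but no such repeat.

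CYP26A1 (ENSG00000095596, chromosome 10, 93073475 to 93077890, plus strand) encodes the enzyme that hydroxylates retinoic acid for its removal. It held 7 and 5 counts in DMSO, 10 and 7 under compound 4, 2 and 1 under compound 5, and 3 and 3 under compound 6. The samples of compounds 5 and 6 were all below DMSO, and those of compound 4 overlapped it. The depth-scaled ratio to DMSO was 1.29 under compound 4 (interval 0.581 to 2.96), 0.236 under compound 5 (0.0428 to 0.875), and 0.514 under compound 6 (0.158 to 1.48), by the exact Clopper-Pearson method for counting error only. Tested without the filter, none of the 3 passed (edgeR adjusted p = 0.912, 0.206, and 0.838). Of the 31-base stretches of CYP26A1, 24.1% also occur in other genes, and exons of AL358613.3 (ENSG00000285846), a processed transcript on the same strand, overlap its exons, so the assignment of these few reads is uncertain.

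CYP24A1 (ENSG00000019186, chromosome 20, 54153449 to 54173973, minus strand) encodes the mitochondrial enzyme that inactivates vitamin D by hydroxylating its side chain. Its level was 158 and 146 CPM in DMSO, 934 and 817 under compound 4, 464 and 413 under compound 5, and 498 and 669 under compound 6, from between 1602 and 10919 counts per sample. Every treated sample was above both DMSO samples, and the group means were 152 ± 7.96, 875 ± 82.5, 438 ± 36.4, and 584 ± 121 CPM (SD, n = 2). The rise was 5.76-fold under compound 4 (log2 fold change 2.53, SE 0.15, edgeR adjusted p = 6.72e-05). It was 2.88-fold under compound 5 (1.53, SE 0.15, edgeR adjusted p = 1.10e-04) and 3.84-fold under compound 6 (1.94, SE 0.15, edgeR adjusted p = 8.26e-04). None of the 31-base stretches of CYP24A1 occurs in another gene.

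DHRS3 (ENSG00000162496, chromosome 1, 12567910 to 12617731, minus strand) encodes the reductase that turns retinaldehyde back to retinol, and it is itself induced by retinoic acid in many cells. Its level was 73.2 and 58.4 CPM in DMSO, 88.2 and 89.4 under compound 4, 97.8 and 92.8 under compound 5, and 74.1 and 66.6 under compound 6. All samples of compounds 4 and 5 were above DMSO, and those of compound 6 overlapped it. The rise was 1.45-fold under compound 5 (log2 fold change 0.54, SE 0.12, edgeR adjusted p = 0.00974) and 1.35-fold under compound 4 (0.43, SE 0.12, edgeR adjusted p = 0.0456). Under compound 6 the log2 fold change was 0.10 (interval -0.18 to 0.37, edgeR adjusted p = 0.721). Without DMSO replicate 2, the lower of the controls, the values were 0.28 for compound 4 (edgeR adjusted p = 0.359) and 0.40 for compound 5 (edgeR adjusted p = 0.0833), and neither passed. The value for compound 5 also missed the threshold without compound 5 replicate 1 (0.52, edgeR adjusted p = 0.0627).

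CD14 (ENSG00000170458, chromosome 5, 140631728 to 140633701, minus strand) encodes the coreceptor for bacterial lipopolysaccharide, a monocyte marker that hepatocytes also make and that vitamin D induces in myeloid cells. It held 1 and 2 counts in DMSO, 11 and 16 under compound 4, 5 and 8 under compound 5, and 9 and 12 under compound 6. All treated samples were above both DMSO samples, but the gene passed the filter only through the groups in which it is high, so it had to differ between groups to be tested. The log2 fold change was 2.94 under compound 4 (SE 0.66, edgeR adjusted p = 0.0162) and 2.75 under compound 6 (SE 0.68, edgeR adjusted p = 0.0476), and 1.95 under compound 5 (SE 0.74, edgeR adjusted p = 0.0705) did not pass. With the DMSO samples at 3 counts in all, these fitted values depend on the prior count. The depth-scaled count ratios were 8.2 (2.52 to 42.2) under compound 4, 4.09 (1.12 to 22.4) under compound 5, and 7.19 (2.15 to 37.6) under compound 6, by the exact Clopper-Pearson method for counting error only.

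Of 9 myeloid markers, 7 (PTPRC, CSF1R, ITGAM, FCGR3A, CD163, TYROBP, and AIF1) held at most 3 counts in every sample, among them the defining leukocyte marker PTPRC. The other two, LYZ and CD68, gave a summed level of 2411 to 3031 CPM in DMSO, 2137 to 2497 under compound 4, 1890 to 2064 under compound 5, and 2225 to 2695 under compound 6. CD68, of whose 31-base stretches 77.3% also occur in other genes, was higher under compound 4 (log2 fold change 0.80, edgeR adjusted p = 0.0079) and did not pass under compounds 5 and 6 in edgeR (0.19 and 0.58, edgeR adjusted p = 0.377 and 0.0596), while DESeq2 called it under compound 6 (0.58, adjusted p = 0.0354). LYZ, which made up nearly all of the sum at 1854 to 2993 CPM, was at -0.25 and -0.16 under compounds 4 and 6 (edgeR adjusted p = 0.296 and 0.593) and was lower under compound 5 (-0.47, edgeR adjusted p = 0.0315).

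CRABP2 (ENSG00000143320, chromosome 1, 156699606 to 156705816, minus strand) encodes the carrier that hands retinoic acid to its receptors in the nucleus. It held 3 counts in the 8 samples together, 1 in each of the treated groups and 0 in DMSO. No sample exceeded 1 count, and no ratio can be given. Stellate cells, which store retinoids in the liver, were looked for by 6 fibroblast and stellate markers, of which 5 (COL1A1, COL1A2, COL3A1, DCN, and LUM) held at most 3 counts in every sample. The list summed to 1.64 to 2.66 CPM in DMSO, 6.32 to 8.72 under compound 4, 2.67 to 4.58 under compound 5, and 3.86 to 5.43 under compound 6, nearly all of it PDGFRB (log2 fold change 1.80 under compound 4, edgeR adjusted p = 0.00864). The 4 endothelial markers summed to between 0.864 and 2.06 CPM. The part of these markers in the changes above was not tested.

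Fold changes of the 3 called genes were compared across other settings, 10 for CYP24A1 and DHRS3, and across 8 fits that each left out 1 sample. CD14 had values in 8, 7, and 9 of the settings for compounds 4, 5, and 6, since it was not tested at a minimum of 10 counts in every sample, DESeq2 gave it no adjusted p under compounds 4 and 5, and it did not pass the filter in the fit of compound 5 and DMSO alone. CYP24A1 passed the threshold in all settings and fits with each compound. Its lowest values were 2.43, 1.42, and 1.72 for compounds 4, 5, and 6, and its highest edgeR adjusted p, 0.0482, came without DMSO replicate 2 for compound 6, when it was the 1 gene called among all tested. DHRS3 under compound 4 lost the call in 4 of the other settings (upper-quartile scaling, library size alone, a fit of only the groups compared, and a cutoff of 0.01) and in 5 of the 8 fits, those without DMSO replicate 2 or without either sample of compound 4 or 5, where the edgeR adjusted p reached 0.359. CD14 under compound 4 lost it at a cutoff of 0.01 and without DMSO replicate 1, DMSO replicate 2, or compound 4 replicate 2 (edgeR adjusted p = 0.104, 0.109, and 0.0689). CD14 under compound 6 lost it in 3 of its 9 settings (DESeq2, the block, and a cutoff of 0.01) and in 6 fits, those without either sample of DMSO, compound 5, or compound 6, where the edgeR adjusted p reached 0.304.

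**Figure D3:**
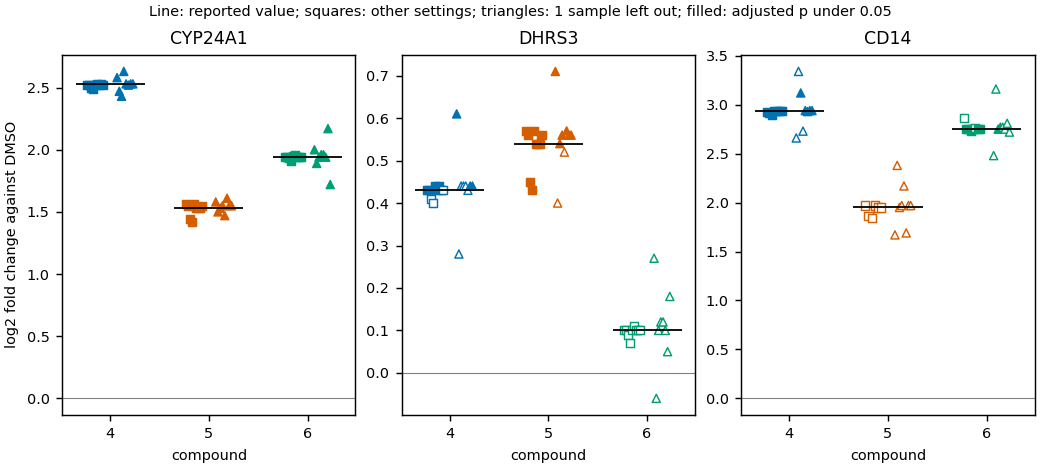
Log2 fold change against DMSO of CYP24A1, DHRS3, and CD14 for each compound as reported (line), under other settings (squares), and with 1 sample left out (triangles), filled where the adjusted p passed. All points of CYP24A1 are filled and lie between 1.42 and 2.63, while those of DHRS3 under compound 6 lie between -0.06 and 0.27 and are open.

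The compounds were then compared with each other over the same 6 genes, in 3 pairs, at concentrations that differ. CYP24A1 was lower under compound 5 than with compound 4 (438 against 875 CPM, 0.501 times the level, interval 0.402 to 0.624, edgeR adjusted p = 0.00543), the 1 called of 6, where 13.9% of all tested genes were called, 6.91% higher and 7.04% lower. It did not pass without compound 5 replicate 2, when 0 of the 6 were called. DHRS3 was higher under compound 5 than with compound 6 (95.3 against 70.4 CPM, log2 difference 0.44, interval 0.16 to 0.71, edgeR adjusted p = 0.0496), again 1 of 6, where 9.91% of all tested genes were called, 4.76% higher and 5.16% lower. That count was also 0 without either sample of compound 5 or of compound 6 and without DMSO replicate 1.

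Compounds 4 and 6, which differ by tert-butyl against cyclohexyl, differed in 0 of the 6 genes in edgeR, where 0.0448% of all tested genes were called, with 3 of the 6 at an unadjusted p under 0.05 and 1 called in DESeq2. That gene was CYP24A1, at 875 against 584 CPM (log2 difference 0.58, interval 0.27 to 0.90, edgeR adjusted p = 0.249, DESeq2 adjusted p = 0.0149). The others under 0.05 were RXRA (0.25, interval 0.04 to 0.46, edgeR adjusted p = 0.462) and DHRS3 (0.34, interval 0.06 to 0.61, edgeR adjusted p = 0.451). The intervals for CD14 between compounds were wide, from -0.84 to 1.21 for compound 4 against 6, from -2.09 to 0.12 for compound 5 against 4, and from -1.95 to 0.34 for compound 5 against 6. CYP24A1 between compounds 5 and 6 (-0.41, interval -0.73 to -0.10) did not pass (edgeR adjusted p = 0.0904), nor did DHRS3 between compounds 5 and 4 (0.10, interval -0.17 to 0.37, edgeR adjusted p = 0.599).

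The wider pathway was read from 8 further lists by role, which overlap in a few genes. Their medians stand beside the median of all tested genes, 0.00 under compounds 4 and 6 and -0.03 under compound 5, and their counts of called genes beside the share of all tested genes called. Among the 7 receptors, 5 were tested (RARA, RARG, RXRA, RXRB, and VDR), and 0 passed with any compound in edgeR or DESeq2. Of all tested genes, edgeR called 11.9%, 28.1%, and 4.40% under compounds 4, 5, and 6. RXRA under compound 6 was the 1 case among the 5 receptors with an unadjusted p under 0.05 in edgeR. The list medians were 0.01, -0.06, and -0.24 for compounds 4, 5, and 6, the first turning to -0.01 under upper-quartile scaling and -0.03 with library size alone. RXRB ranged from 38.1 to 53.1 CPM, and RARG from 0.412 to 1.56 CPM. Genes named below without values in each sample were named after their values were seen.

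Of 28 retinoid enzymes, 14 were tested, with 2 higher and 1 lower under compound 4, and 1 higher and 5 lower under compound 5. The gene higher under compound 5 was DHRS3, described above, which was also among those higher under compound 4. Of all tested genes, 6.50% were higher and 5.42% lower under compound 4, and 13.9% and 14.2% under compound 5. Under compound 6, 0 passed in edgeR or DESeq2, where edgeR called 4.40% of all tested genes, and 5 had an unadjusted p under 0.05 in edgeR. The gene lower under compound 4, RDH11 (log2 fold change -0.43, edgeR adjusted p = 0.0417), was lost with replicate as a block (edgeR adjusted p = 0.0523). The list medians were -0.07, -0.32, and -0.04. RDH10, which oxidizes retinol to retinaldehyde, was at 45.7 and 42.7 CPM in DMSO and at 68.1 and 77.7 under compound 4 (log2 fold change 0.72, edgeR adjusted p = 0.00898). The reductase DHRS4 fell under compound 5, from 18.5 and 18.4 to 10.8 and 10.4 CPM (-0.80, edgeR adjusted p = 0.00668), although 47.1% of its 31-base stretches also occur in other genes. ADH4, an alcohol dehydrogenase that accepts retinol, fell under compound 5 from 6.89 and 6.82 to 4.22 and 3.85 CPM (-0.77, edgeR adjusted p = 0.0224), a call lost in DESeq2 (adjusted p = 0.143). The near-identical ADH1A, ADH1B, and ADH1C, abundant in liver, held 0 counts in all samples, as did LRAT, which esterifies retinol for storage.

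Of 14 retinoid carriers and uptake proteins, 7 were tested, with 2 higher under compound 4, 2 higher and 3 lower under compound 5, and 2 higher under compound 6, where 11.9%, 28.1%, and 4.40% of all tested genes were called in either direction. In edgeR with replicate as a block, 0 passed under compound 6, where 1 passed in DESeq2 and 4 had an unadjusted p under 0.05 in edgeR without the block. The list medians were 0.12, -0.15, and 0.09. RBP5, an intracellular retinol carrier, fell under compound 5 from 14.7 and 10.1 to 3.21 and 4.71 CPM (-1.62, edgeR adjusted p = 0.00165).

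Of 18 retinoid targets, 8 were tested, and 4 were higher under compound 4, 4 higher and 1 lower under compound 5, and 3 higher and 1 lower under compound 6 (2 higher with the block). DHRS3 was again among those higher under compounds 4 and 5. DESeq2 called 4, 3, and 2 of the 8. Of all tested genes, edgeR called 11.9%, 28.1%, and 4.40%. The list medians were 0.38, 0.26, and 0.23. ICAM1, an adhesion molecule that cytokines also induce, was at 120 and 105 CPM in DMSO, 186 and 181 under compound 4, 258 and 240 under compound 5, and 168 and 182 under compound 6 (log2 fold change 0.70, 1.14, and 0.63, edgeR adjusted p = 0.00256, 1.09e-04, and 0.0121). HIC1, a transcriptional repressor, rose under compound 5 from 1.67 and 1.48 to 2.75 and 3.85 CPM (1.07, edgeR adjusted p = 0.0341), a call lost in DESeq2 (adjusted p = 0.161). RARRES2, the secreted protein chemerin, was lower under compounds 5 and 6 (-0.91 and -0.58, edgeR adjusted p = 0.00137 and 0.0462), the latter lost with the block (edgeR adjusted p = 0.0507) and in DESeq2 (adjusted p = 0.0838). The 10 untested targets, among them RARB, CYP26A1, CRABP2, and STRA6, held at most 10 counts in a sample.

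**Figure D4:**
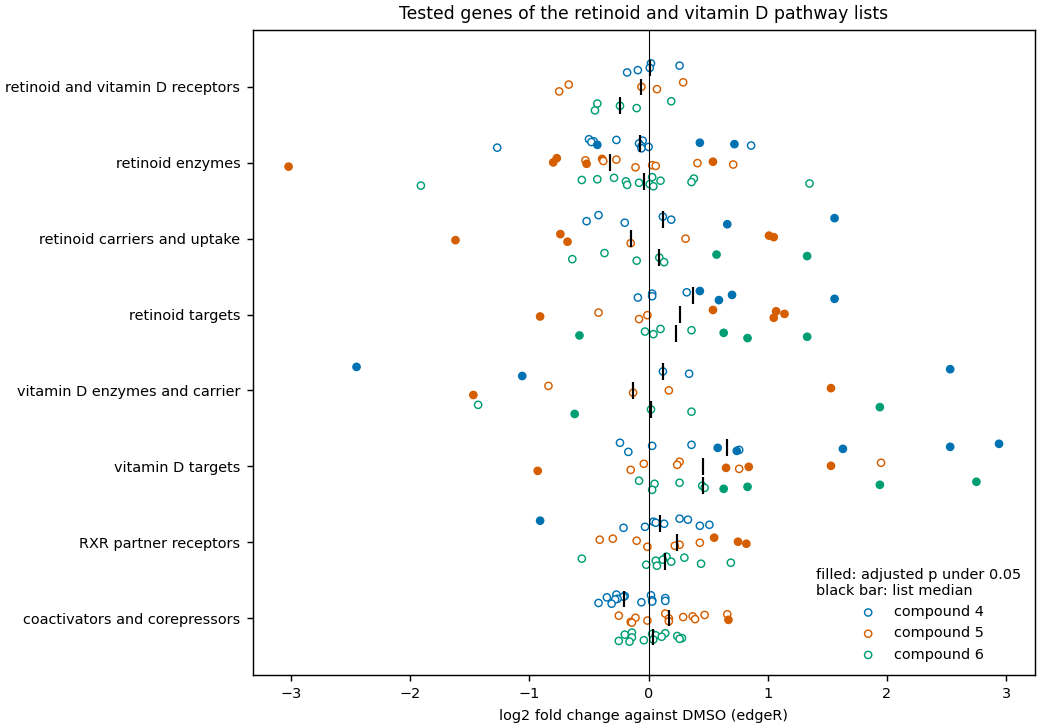
Log2 fold change against DMSO of the tested genes in the 8 pathway lists, with 1 point per gene and compound, filled where the edgeR adjusted p was under 0.05, and a black bar at each list's median. The vitamin D target medians are 0.66, 0.45, and 0.46 for compounds 4, 5, and 6, and the receptor points are all open.

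Of 8 vitamin D enzymes and carriers, 5 were tested. Besides CYP24A1, the called genes were lower, 2 under compound 4, 1 under compound 5, and 1 under compound 6, where 5.42%, 14.2%, and 1.60% of all tested genes were lower, and the list medians were 0.12, -0.13, and 0.02. DHCR7, which diverts the vitamin D precursor to cholesterol, was at 300 and 280 CPM in DMSO, 130 and 147 under compound 4, 96.5 and 112 under compound 5, and 220 and 160 under compound 6. Its log2 fold changes were -1.06, -1.47, and -0.62 (edgeR adjusted p = 0.00184, 1.71e-04, and 0.0447), the last lost with the block (edgeR adjusted p = 0.063). CUBN, a receptor for the uptake of carrier-bound vitamin D, fell under compound 4 from 2.56 and 4.19 to 0.855 and 0.390 CPM (-2.45, edgeR adjusted p = 0.00819). The activating hydroxylase CYP27B1 was at 1.47 to 3.54 CPM and did not pass (log2 fold change 0.34, -0.13, and 0.36, edgeR adjusted p = 0.632, 0.842, and 0.674), and GC, the plasma carrier that normal hepatocytes secrete, held at most 2 counts in a sample.

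Of 22 vitamin D targets, 10 were tested, with 5 higher under compound 4, 3 higher and 1 lower under compound 5, and 4 higher under compound 6, where 11.9%, 28.1%, and 4.40% of all tested genes were called. CYP24A1 and CD14 belong to this list, and CD14 entered it only through its high groups. IGFBP3, a carrier of insulin-like growth factors, was at 27.7 and 19.0 CPM in DMSO, 81.7 and 62.6 under compound 4, 39.5 and 33.3 under compound 5, and 38.5 and 43.8 under compound 6 (log2 fold change 1.63, 0.65, and 0.83, edgeR adjusted p = 8.67e-04, 0.0297, and 0.0388), the call under compound 5 being lost with library size alone (edgeR adjusted p = 0.0538). SPP1, the matrix protein osteopontin, was higher under compounds 4 and 6 (0.74 and 0.63, edgeR adjusted p = 0.0121 and 0.0494) and at -0.15 under compound 5 (edgeR adjusted p = 0.501), and its call under compound 6 was lost with RLE scaling, upper-quartile scaling, and library size alone (edgeR adjusted p = 0.0501, 0.0553, and 0.0512). GADD45A, a growth arrest gene that DNA damage also induces, was higher under compounds 4 and 5 (0.58 and 0.84, edgeR adjusted p = 0.0215 and 0.00175), and under compound 6 it passed in the block fit alone (0.45, edgeR adjusted p = 0.0921 without and 0.0478 with the block). TXNIP, an inhibitor of thioredoxin, fell under compound 5 from 50.3 and 48.7 to 23.4 and 28.6 CPM (-0.93, edgeR adjusted p = 6.43e-04). The other 12 targets, among them CAMP, THBD, TRPV6, and S100G, held at most 3 counts in any sample.

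Among 12 receptors that can pair with RXR or bind its sites, 10 were tested, with 1 lower under compound 4 and 3 higher under compound 5 (medians 0.10, 0.24, and 0.13). Of all tested genes, 11.9% and 28.1% were called in either direction, so the counts of called receptors were near that share. By direction, 5.42% of all tested genes were lower under compound 4 and 13.9% higher under compound 5. Under upper-quartile scaling or library size alone, 2 of the 10 receptors were also lower under compound 5. Under compound 6, 0 passed in edgeR and 1 in DESeq2, and 4 had an unadjusted p under 0.05. The bile acid receptor NR1H4 fell under compound 4 from 32.6 and 40.8 to 18.1 and 21.0 CPM (-0.91, edgeR adjusted p = 0.00508). PPARD, a fatty acid receptor, rose under compound 5 from 17.0 and 21.0 to 33.4 and 33.9 CPM (0.82, edgeR adjusted p = 0.00809). NR4A1, an orphan receptor of the early response, rose under compound 5 from 8.96 and 8.71 to 16.3 and 13.5 CPM (0.75, edgeR adjusted p = 0.0174). Of 15 coactivators and corepressors, 14 were tested (medians -0.20, 0.17, and 0.03). Under compounds 4 and 6, 0 passed in edgeR, where 11.9% and 4.40% of all tested genes were called. DESeq2 called 1 and 0 of the 14, and 2 and 0 had an unadjusted p under 0.05 in edgeR. With upper-quartile scaling, 1 was lower under compound 4. Under compound 5, 1 was higher in edgeR and 1 called in DESeq2, 2 had an unadjusted p under 0.05, and 0 passed in edgeR with the block, while 28.1% of all tested genes were called.

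Other genes followed the called ones closely over the 8 samples. By Pearson's correlation of log2 CPM, searched over 12693 genes and given as a description, the nearest to CYP24A1 were GLIPR1 (r = 0.988), SLC16A6 (0.987), and ITGA10 (0.987). SLC16A6, a monocarboxylate transporter, had group means of 4.38 CPM in DMSO, 39.1 under compound 4, 15.2 under compound 5, and 24.5 under compound 6. Among the nearest to DHRS3 were NAPA (0.982) and AKR1C2 (0.972), the latter a steroid and carbonyl reductase at 105, 169, 187, and 131 CPM in the same order of groups. Nearest to CD14 were RENBP (0.988), FNDC4 (0.987), and ESAM (0.972), with RENBP at 0.936, 4.47, 2.20, and 3.91 CPM. The 8 points of each correlation share the 4 treatments and the libraries.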

How the data were processed

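Strand-specific RNA libraries were sequenced from 8 samples of the HepG2 derivative, 2 in each of 4 groups. The authors checked reads with FastQC 0.12.0, quantified them with Salmon 1.5.0 on the GENCODE transcriptome, and summed them to genes with tximeta (GRCh38). The deposited values are estimated counts in whole numbers, without correction for depth. Salmon splits reads between similar transcripts by estimation, so genes that share sequence are less certain. Totals ran from 9472261 to 13308975 counts. Columns of 0 other samples were present. Symbols were matched by Ensembl identifier for 60089 of 60230 genes. Coordinates, exon overlaps, and exon lengths are from GENCODE 29, not the release used for counting, and promoter windows from RefSeq, of which the 250 bases before the start were searched and the 50 after it left out.

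Counts were scaled by TMM, filtered by filterByExpr, and fitted in R 4.3.3 with edgeR 4.0.16 (quasi-likelihood test, 4 groups, all 8 samples). The threshold was an adjusted p of 0.05 (Benjamini-Hochberg). Ratios of low counts were given exact Clopper-Pearson intervals in scipy 1.17.1. The alternatives were DESeq2 1.42.0, RLE and upper-quartile scaling, library size alone, no filter, a minimum of 10 counts in each sample, a block for replicate, a robust spread, only the groups compared, a cutoff of 0.01, and 8 fits that each left out 1 sample. In the last, a lone sample was assumed to vary like the other groups.

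Replicate numbers come from the labels' day 1 and day 2. Samples of the same labelled day were treated as paired in the block fit. The labels do not say whether the day is a culture batch or an exposure time, and the study gives 1 exposure time. Deviations of same-numbered samples correlated at -0.083 to 0.16 over 6 pairs of groups. The labels do not say that the samples came from separate cultures, so p-values measure the spread between these samples, which may be technical. Replicates differed by more than sampling noise (chi-square per degree of freedom 5.82 to 18.4), and none was counted as a duplicate. Exact permutation of 2 against 2 cannot go below p = 0.333 and was not used.

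The members, gene lists, and rules were chosen with earlier results of these data known. All 9 genes are named, and the rule for each list took the called genes with the largest change, at most 3, with a mean of at least 1 CPM. Other listed genes, such as RDH11, RARRES2, SPP1, and GADD45A, were named after their values were seen. The 3 genes nearest in pattern are named for each called member. Some genes that these rules select are counted but not reported here by name. The procedure was tested on simulated data for compound 4 against DMSO (3 tables of 13404 genes, 200 changed by 1 on the log2 scale). It recovered 75.7% of the changed genes, and 7.16% of its calls fell on unchanged genes. In the data, 1598, 3763, and 590 genes were called with compounds 4, 5, and 6. Fewer genes changed in the simulation, so its rates need not hold for the data.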

Additional observations from a re-analysis of the deposited data

How the results depend on the processing

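No called fold change against DMSO of the 6 tested genes changed direction. The counts that follow include fold changes that were not called as reported, such as those of RARA, RXRA, and VDR, which had no call to lose. Every loss was of DHRS3 under compound 4 or 5 or of CD14 under compound 4 or 6. Of 169 fold changes against DMSO under other settings, 161 kept their side of the threshold and 8 lost the call, and of 144 with 1 sample left out, 128 kept it and 16 lost it. At a cutoff of 0.01, the number of the 9 genes called was 1 with compound 4, 1 with compound 6, and 0 between compounds 5 and 6, and all genes called numbered 591, 1809, and 92 with compounds 4, 5, and 6. With compound 6, DESeq2, at least 10 counts in every sample (which leaves CD14 untested), and the replicate block each called 1 of the genes. The block changed no other call of the 9 genes, and its changes among the listed genes stand beside them or their counts. Without a filter on low counts, 1441 genes were called with compound 6, 2 of the 9 genes between compounds 5 and 6, and 1 between compounds 4 and 6, where DESeq2 also called 1. Leaving out 1 sample gave 1 to 3, 1 to 2, and 1 to 2 of the 9 genes with compounds 4, 5, and 6, 0 to 1 between compounds 5 and 4, and 0 to 1 between compounds 5 and 6. For all genes it gave 335 to 1703 with compound 4, 1680 to 4519 with compound 5, and 1 to 1096 with compound 6. Counts moved by over 1.5 times without DMSO replicates 1 and 2 with compound 4 (663 and 335), without either DMSO or compound 5 sample with compound 5 (1685, 2007, 1680, and 2139), and without any of the 8 samples with compound 6 (90 and 1 without DMSO replicates 1 and 2, 1090 and 1096 without those of compound 4, 350 and 371 of compound 5, 1001 and 49 of compound 6). The cause was not tested.

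The balance of calls moved with the scaling. With compound 5, 49.3% of calls were higher under TMM, 53.1% under RLE, 59.2% in DESeq2, and 36.6% and 33.3% with upper-quartile factors and library size alone, and the median change of all tested genes moved from -0.03 to -0.12 and -0.14 with these last settings. DESeq2 gave no adjusted p for 3 of 18 tests of the genes. For VDR, CD14, and the genes under the filter, depth limits what could be seen.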
